A study of Mus musculus with 2 samples.

Results

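The 10 genes described here encode the gate through which pyruvate enters mitochondrial metabolism. They are the 4 pyruvate dehydrogenase kinases (Pdk1, Pdk2, Pdk3 and Pdk4), 4 subunits of the pyruvate dehydrogenase complex (Pdha1, Pdhb, Dlat and Pdhx) and the 2 subunits of the mitochondrial pyruvate carrier (Mpc1 and Mpc2). They were chosen by name out of 31053 annotated genes, and all 10 had at least 1 UMI in adipocyte nuclei of both libraries. UMIs are molecular tags that count each captured transcript once. The data are single-nucleus RNA counts of brown adipose tissue of C57BL/6 mice, an inbred laboratory strain. One library came from mice housed at thermoneutrality, where little extra heat is needed to hold body temperature (TN), and the other from mice sampled 4 days after a transient acute exposure to cold (1cyc). Each library pooled the nuclei of 5 mice, sorted for DAPI, a DNA stain, and the mouse of a nucleus is not recorded. Sex and age are not given in the labels. With 1 library per condition there is no test between conditions and no p-value. The intervals in parentheses are 95% intervals of counting error, and differences between mice or between preparations are not part of them.

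Pyruvate made by glycolysis crosses the inner mitochondrial membrane through a carrier made of MPC1 and MPC2. The pyruvate dehydrogenase complex then turns it into acetyl-CoA in a step that cells cannot reverse. PDHA1 and PDHB form the decarboxylating enzyme, DLAT carries the acetyl group, PDHX anchors the shared enzyme DLD to the DLAT core, and DLD reoxidises it. The PDK kinases phosphorylate PDHA1 and switch the complex off, and the PDP phosphatases switch it on again. PDK4 is known as the kinase that is induced by fasting and fatty acids, through PPAR, glucocorticoid and FOXO signals, and that spares glucose when fat is burnt. In brown fat, acetyl-CoA from pyruvate can be burnt for heat or exported as citrate for fatty acid synthesis.

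Adipocyte nuclei were those with at least 4 UMIs of Pparg, Acsl1, Pde3b and Ppara together and under 5% mitochondrially encoded UMIs. The rule took 1081 of 1340 TN nuclei under that limit (80.7%) and 912 of 1084 1cyc nuclei (84.1%), with 1193078 and 989852 UMIs in sum. Of 2551 TN and 4321 1cyc barcodes, 1211 and 3237 lay at or above the mitochondrial limit, so far more of the 1cyc library was left out. The lowest deposited barcode had 500 UMIs in TN and 262 in 1cyc, and the median adipocyte nucleus had 873 and 966.5. At the threshold itself, 45 TN and 49 1cyc nuclei had exactly 4 rule UMIs, and 61 and 53 nuclei missed by 1. All 10 genes of the adipocyte marker list were detected in both, but 4 of them, Pparg, Acsl1, Pde3b and Ppara, chose the nuclei. The rule did not use Adipoq, Plin1, Lipe, Cidec, Adrb3 and Lpl. Ucp1, the brown fat uncoupling protein, had 150 UMIs in TN (125.7 CPM) and 267 UMIs in 1cyc (269.7 CPM). CPM is the count per 1000000 UMIs of the summed nuclei. Markers of other cells were present in these nuclei at unequal levels. Haemoglobin genes summed to 36550 CPM among TN and 2732 CPM among 1cyc nuclei, and the 10 skeletal muscle markers to 213.7 and 620.3 CPM, with Myh2 at 0 in TN and Myh7 at 0 in 1cyc. The 8 endothelial markers summed to 514.6 and 217.2 CPM and the 10 fibroblast markers to 507.1 and 237.4 CPM, with none at 0, and the 9 immune markers to 67.9 and 24.3 CPM, with C1qa at 0 in both. Values without the nuclei with a muscle UMI, or with as many UMIs of another class as of the adipocyte rule, are stated for Pdk4. For the kinase to subunit balance the value without muscle-marked nuclei is stated. For other results both choices are among the alternatives over which ranges are given. The libraries shared 6 barcodes, 1 of them among adipocyte nuclei.

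Promoter sequences are shown for Pdk4, the member with the most UMIs, and for the 4 complex subunits, since these are parts of 1 enzyme whose transcript ratios differed between the libraries. They come from RefSeq on GRCm38.p6, the assembly also called mm10, where all 10 members matched. Each line reads 5′ to 3′ on the gene's strand, which is the minus strand for all 5, and stops before the first annotated exon. Capitals mark the letters CCAAT or GGGCGG, a Sp1-type GC box, on either strand, so that ATTGG is CCAAT read on the other strand. The windows are chr6:5496310-5496528 for Pdk4, chrX:160138431-160138680 for Pdha1, chr14:8173026-8173242 for Pdhb, chr9:50659781-50660030 for Dlat and chr2:103073514-103073763 for Pdhx.
Pdk4: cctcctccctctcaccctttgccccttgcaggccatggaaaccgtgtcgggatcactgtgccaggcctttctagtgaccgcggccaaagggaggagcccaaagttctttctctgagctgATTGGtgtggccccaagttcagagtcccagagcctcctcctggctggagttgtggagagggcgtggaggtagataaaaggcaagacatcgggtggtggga
Pdha1: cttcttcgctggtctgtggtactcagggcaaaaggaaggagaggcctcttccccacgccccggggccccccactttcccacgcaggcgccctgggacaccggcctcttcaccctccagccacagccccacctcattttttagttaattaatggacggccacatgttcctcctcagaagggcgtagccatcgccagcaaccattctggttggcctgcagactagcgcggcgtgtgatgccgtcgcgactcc
Pdhb: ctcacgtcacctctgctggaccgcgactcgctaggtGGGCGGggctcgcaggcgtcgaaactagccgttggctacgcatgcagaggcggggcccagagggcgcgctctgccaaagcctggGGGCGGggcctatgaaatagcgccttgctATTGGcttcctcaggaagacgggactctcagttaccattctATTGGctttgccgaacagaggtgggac
Dlat: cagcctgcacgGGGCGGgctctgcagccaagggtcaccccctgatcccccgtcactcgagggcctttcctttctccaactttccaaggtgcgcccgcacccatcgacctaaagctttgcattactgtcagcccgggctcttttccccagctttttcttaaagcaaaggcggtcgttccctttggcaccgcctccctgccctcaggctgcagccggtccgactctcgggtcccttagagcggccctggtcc
Pdhx: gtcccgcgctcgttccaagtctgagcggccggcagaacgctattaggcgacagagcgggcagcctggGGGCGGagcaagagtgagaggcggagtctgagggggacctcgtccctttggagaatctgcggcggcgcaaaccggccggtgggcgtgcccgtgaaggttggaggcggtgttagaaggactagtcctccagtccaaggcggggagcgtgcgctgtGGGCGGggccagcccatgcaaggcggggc
Counted over the full 250 bases before the RefSeq start, which for Pdk4 and Pdhb reach past the printed stretch, Pdk4 held 1 CCAAT and no GGGCGG. Pdhb held 3 CCAAT and 2 GGGCGG, Dlat 1 GGGCGG, Pdhx 2 GGGCGG, and Pdha1 neither. Of 32851 promoter windows of the same length, 33.9% held CCAAT and 32.7% held GGGCGG. The letters AAGGTCA, a half-site of nuclear receptors of the ERR type, stood in 4.08% of windows and in that of no member. CCGGAAG, an ETS-type site, stood in 6.91% of windows and among the members in that of Mpc1. CACGTG, the E-box, stood in 6.02% and among the members in that of Pdk2, and TATAAA stood in 12.4% and in that of no member. All motifs were searched on both strands, and none is contained in another. These matches are letters and not known binding sites.

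Most kinase UMIs came from Pdk4. This starvation-induced kinase had 763 UMIs in TN adipocyte nuclei, or 640 CPM (594.9 to 686.6), and 813 in 1cyc, or 821 CPM (765.8 to 879.8). The 1cyc level was thus higher, with a ratio of 1.28 (1.16 to 1.42). That size rests on how nuclei are weighed and filtered. The ratio was 1.62 with a mitochondrial limit of 2%, 1.11 with every nucleus thinned to 500 UMIs and 1.08 with every nucleus given the same weight. Without the nuclei rich in markers of another class it was 1.17, and without nuclei holding a muscle UMI 1.22. Across the 3643 genes that reached 100 UMIs in both sums together the median ratio was 1.06. That median was 1.11 at the 2% limit, 1.02 when thinned and 1.02 with every nucleus given the same weight.

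The other kinases were sparse. Pdk2, the most widely expressed isoform across tissues, had 38 UMIs in TN (31.9 CPM, 22.5 to 43.7) and 59 in 1cyc (59.6 CPM, 45.4 to 76.9). Its ratio was 1.87 (1.22 to 2.89), but its 97 UMIs lay below the minimum of 100, so it was not counted among the genes compared. Pdk1, the isoform known as a target of hypoxia signalling, had 77 and 64 UMIs, or 64.5 and 64.7 CPM. Its ratio of 1.00 (0.708 to 1.41) allows a difference of up to 1.41-fold. Pdk3 had 4 UMIs in TN and 1 in 1cyc, a ratio of 0.301 (0.00612 to 3.04) that fixes no direction. Summed over the 4 kinases TN nuclei held 739.3 CPM (691.3 to 789.7) and 1cyc nuclei 946.6 CPM (887 to 1009), with a ratio of 1.28 (1.17 to 1.41).

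Subunits of the complex were higher in the 1cyc library with 1 exception. Pdha1, which encodes the subunit that the kinases phosphorylate, had 67 UMIs in TN (56.2 CPM, 43.5 to 71.3) and 118 in 1cyc (119.2 CPM, 98.7 to 142.8). The intervals of the 2 levels do not overlap, and the ratio was 2.12 (1.56 to 2.91). Its partner Pdhb had 63 UMIs (52.8 CPM) and 85 UMIs (85.9 CPM), with a ratio of 1.63 (1.16 to 2.29). Dlat, which encodes the acetyltransferase core, had 226 UMIs in TN (189.4 CPM, 165.5 to 215.8) and 290 in 1cyc (293 CPM, 260.2 to 328.7), with a ratio of 1.55 (1.30 to 1.85). Pdhx, the anchoring subunit, was the exception, with 57 UMIs in TN (47.8 CPM, 36.2 to 61.9) and 39 in 1cyc (39.4 CPM, 28.0 to 53.9). Its ratio of 0.825 (0.534 to 1.26) includes 1 and rests on 96 UMIs, below the minimum. At the 2% mitochondrial limit it was 1.07, on the other side of 1.

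Pdhx was chosen for a direct comparison with its partners after its value was seen. Dlat had 3.97 UMIs for each Pdhx UMI in TN and 7.44 in 1cyc, a change of 1.88-fold (1.18 to 3.004). Pdha1 had 1.18 UMIs for each Pdhx UMI in TN and 3.03 in 1cyc, a change of 2.57-fold (1.51 to 4.41). Such a ratio within a library does not depend on its scaling, and both intervals lie above 1. In the barcodes at or above the mitochondrial limit that met the adipocyte rule, Pdhx stood higher in 1cyc instead, at 48.8 against 37.9 UMIs per 1000000 that are not mitochondrially encoded. There the Dlat to Pdhx ratio changed by 0.859-fold (0.443 to 1.66) and that of Pdha1 to Pdhx by 1.31-fold (0.613 to 2.80), and both intervals include 1. Summed over the 4 subunits TN nuclei held 346.2 CPM (313.6 to 381.2) and 1cyc nuclei 537.5 CPM (492.7 to 585.1), with a ratio of 1.55 (1.36 to 1.77).

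Both carrier subunits were higher in 1cyc. Mpc1 had 237 UMIs in TN (198.6 CPM, 174.2 to 225.6) and 311 in 1cyc (314.2 CPM, 280.2 to 351.1), with a ratio of 1.58 (1.33 to 1.88). Mpc2 had 167 UMIs (140 CPM, 119.5 to 162.9) and 179 UMIs (180.8 CPM, 155.3 to 209.4), with a ratio of 1.29 (1.04 to 1.60). The levels of Mpc1 lie apart and those of Mpc2 overlap in their intervals. In sum the carrier reached 338.6 CPM in TN nuclei and 495 CPM in 1cyc nuclei, for a ratio of 1.46 (1.28 to 1.67).

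**Figure D1:**
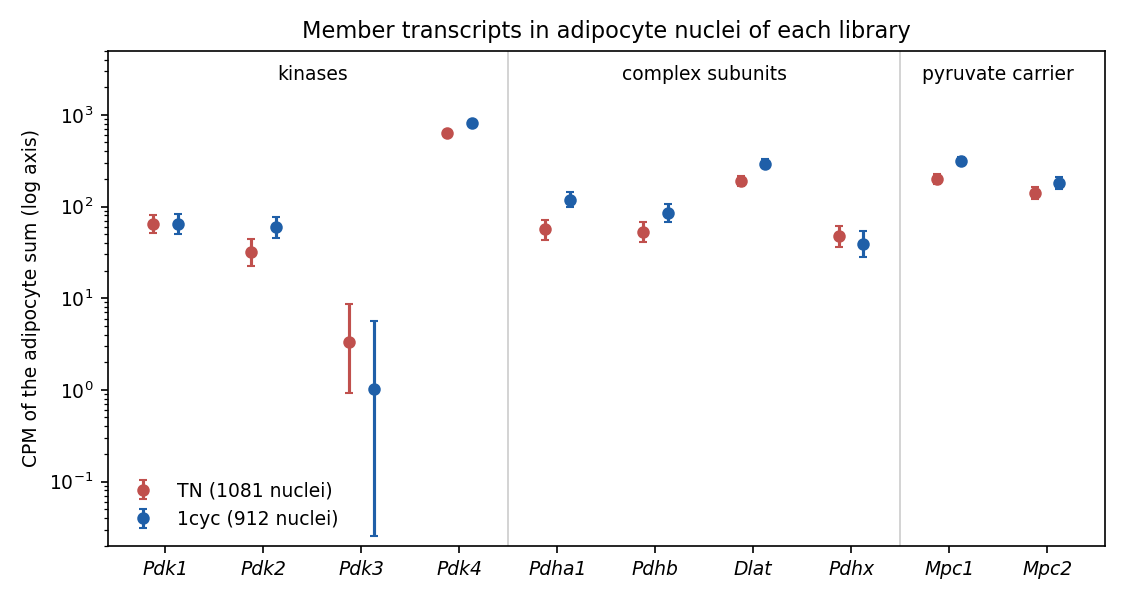
CPM of each member in the summed adipocyte nuclei of the TN (red) and 1cyc (blue) libraries on a log axis, with exact 95% Poisson intervals of counting error. Within a gene the 2 points compare the libraries, and the intervals lie apart for Pdk2, Pdk4, Pdha1, Pdhb, Dlat and Mpc1 and overlap for Pdk1, Pdk3, Pdhx and Mpc2. Counts are not scaled by transcript length, so different genes are not compared.

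Of the 10 members 7 reached 100 UMIs over both sums, and 4 of these 7 (Pdha1, Pdhb, Dlat and Mpc1) were at least 1.5-fold higher in 1cyc, against 8.56% of all 3643 genes tested. None of the 7 was at least 1.5-fold lower, against 5% of all genes. The ratio lay above 1 in 7 of 7, against 60.9% of genes, and the counting interval lay above 1 in 6 of 7, against 20.6%. For Pdk1 the ratio was only 1.002, and it was 0.934 with TMM scaling. The median ratio of the 7 was 1.55, beside 1.06 over all genes. The count of 4 depends on the scaling, because Dlat and Mpc1 sit close to the threshold. With TMM factors, which match the bulk of the genes, Dlat had 1.44 and Mpc1 1.48, and the count was 2. Pdha1 had the largest ratio of the 7 and lay between 1.69 and 2.25 under the 18 alternatives for nuclei and scaling. Over the same alternatives Pdhb ran from 1.40 to 1.72 and Dlat from 1.105 to 1.75. Mpc1 ran from 1.34 to 1.71 and Mpc2 from 1.13 to 1.47.

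In adipocyte nuclei under the mitochondrial limit, there were fewer kinase transcripts for each subunit transcript in 1cyc than in TN. For each subunit UMI there were 2.14 kinase UMIs in TN (882 to 413) and 1.76 in 1cyc (937 to 532). The balance in 1cyc was 0.825 times that in TN (0.702 to 0.969), and it was 0.837 (0.710 to 0.986) among nuclei that are not white-like. Pdk4 alone against the subunits gave 0.827 (0.701 to 0.976). Carrier against subunits gave 0.942 (0.780 to 1.14), an interval that includes 1. The barcodes at or above the limit that met the adipocyte rule had the opposite direction, with 1.87 kinase UMIs for each subunit UMI in TN (388 to 207) and 2.17 in 1cyc (535 to 246), and a balance of 1.16 (0.919 to 1.46) whose interval includes 1. In these barcodes the kinases had a ratio of 1.51 and the subunits of 1.30, on the scale of UMIs that are not mitochondrially encoded. Scaling cannot move the balance. Under the other choices of nuclei and weights it ran from 0.758 without muscle-marked nuclei to 0.945 at the 2% mitochondrial limit, and it was 0.924 with no limit.

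The share of nuclei with a UMI of each gene was taken as well. Of TN adipocyte nuclei 41.7% had a Pdk4 UMI (451 of 1081), and 46.7% of 1cyc nuclei did. Among them 75 TN and 91 1cyc nuclei had 3 or more, and the highest nuclei held 11 and 8. Depth differed between the libraries, with a higher median in 1cyc but also a shallower lowest adipocyte nucleus, of 270 UMIs against 501 in TN. Each nucleus was therefore thinned to 500 UMIs, which left out 125 shallower 1cyc nuclei and none of TN. The thinned share with a Pdk4 UMI was 27.66% (25.01 to 30.43) in TN and 30.9% (27.7 to 34.2) in 1cyc, with overlapping intervals. Any subunit was found in 16.2% (14.0 to 18.5) and 23.1% (20.2 to 26.2), intervals that lie apart. Pdha1 was found in 2.78% (1.88 to 3.94) and 5.72% (4.20 to 7.58), which also lie apart. Mpc1 was found in 9.81% (8.10 to 11.7) and 13.9% (11.5 to 16.5), which overlap slightly. Dlat was found in 9.81% (8.10 to 11.7) and 13.1% (10.8 to 15.7), which overlap too. Pdhx went the other way, at 2.59% (1.73 to 3.72) and 1.91% (1.07 to 3.12), also with overlap. Before thinning, Pdha1 had been found in 5.64% and 12.0% and any subunit in 28.8% and 39.0%, and Pdhx in 5.09% and 3.95%. The background from free RNA was not measured by itself. All nuclei outside the adipocyte rule, muscle and unassigned nuclei included, had a thinned Pdk4 share of 3.86% (1.87 to 6.99) in TN. In 1cyc their share was 5.56% (2.07 to 11.7). Fibroblast nuclei were taken as a narrower gauge, on the assumption that they hold little Pdk4 of their own. Their own Pdk4 and free RNA cannot be told apart here. After thinning 0 of 92 TN fibroblast nuclei had a Pdk4 UMI, which allows a share of up to 3.26% at 3 counts, and 2 of 51 in 1cyc did. The median depth of the fibroblast nuclei before thinning was 1208 UMIs in TN and 1066 in 1cyc.

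Pdk4 UMIs were found both in nuclei with and in nuclei without subunit UMIs. After thinning, 34.3% (27.3 to 41.8) of TN nuclei with a subunit UMI also had a Pdk4 UMI, against 26.6% (23.8 to 29.6) of those without. In 1cyc the shares were 35.2% (28.3 to 42.6) and 29.8% (26.1 to 33.6). The share was higher with a subunit UMI in both libraries. The intervals overlap in both, which does not decide whether the shares differ, and the difference was not tested.

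White-like nuclei, adipocyte nuclei with at least 3 UMIs of Nnat and Slc7a10 together, held much less Pdk4. The rule took 81 TN nuclei (7.49% of adipocyte nuclei) and 23 1cyc nuclei (2.52%), of which 10 and 3 sat exactly at the threshold and another 18 and 4 missed by 1 UMI. White adipocyte markers that the rule did not use were Lep, Npr3 and Cfd. Lep stood at 184 CPM and Npr3 at 1193 CPM in the TN white-like nuclei, against 57.0 and 369 CPM over all TN adipocyte nuclei. The level of Cfd is not given here, so these values cover only a part of the markers. The 9 brown markers summed to 883.5 CPM in TN white-like nuclei, against 4169 CPM over all TN adipocyte nuclei. Brown markers in the other adipocyte nuclei summed to 4591 CPM. Dio2, Elovl3 and Cox8b were at 0 in TN white-like nuclei and Ucp1, Dio2 and Elovl3 in those of 1cyc. White-like nuclei were also deeper, with a median of 1536 UMIs in TN against 856.5 in the other adipocyte nuclei, and CPM takes depth into account only as a scale. Markers of other cells differed between the groups as well. Scn7a, a sodium channel gene on the Schwann cell list, stood at 515.4 CPM in white-like and 48.2 CPM in other adipocyte nuclei of TN, and at 428.9 and 47.2 CPM in 1cyc, while Sox10 of the same list was at 0 in all 4 sums. Haemoglobin genes summed to 228.2 CPM in TN white-like nuclei and to 41216 CPM in the others. The part of these markers in the results was not tested.

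In TN, Pdk4 had 24 UMIs in white-like nuclei (176.7 CPM) and 739 in the others (699 CPM), a ratio of 0.253 (0.161 to 0.379). Dlat was also lower, with 7 UMIs (51.5 CPM) against 219 (207.1 CPM) and a ratio of 0.249 (0.0989 to 0.521). Mpc1 had a ratio of 0.602 (0.344 to 0.985) and Mpc2 of 0.549 (0.268 to 1.01). Pdk2 and Pdk3 alone had a higher level in white-like nuclei, Pdk3 on 1 UMI. Pdk2 had 8 UMIs against 30 (58.9 and 28.4 CPM), with a ratio of 2.08 (0.822 to 4.63) that includes 1. By groups the ratios were 0.351 (0.246 to 0.485) for kinases, 0.355 (0.208 to 0.568) for subunits and 0.580 (0.380 to 0.852) for the carrier. With white-like nuclei taken from 1 UMI of Nnat or Slc7a10, the TN ratios were 0.313 for Pdk4, 0.495 for Dlat and 0.548 for subunits. Of 2177 genes with at least 100 TN adipocyte UMIs, 24% were at least 1.5-fold lower in white-like nuclei, so lower values are common in this comparison. That minimum is met mainly through the 1000 other nuclei, so members are not counted here.

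In 1cyc white-like nuclei Pdk4 was lower too, on very few counts. Pdk4 had 3 UMIs there (80.4 CPM) against 810 in the others (850.4 CPM), a ratio of 0.0946 (0.0195 to 0.277). Mpc2 had 0 UMIs, which allows a level of up to 80.4 CPM at 3 counts, against 187.9 CPM in the others. Mpc1 had 5 UMIs and a ratio of 0.417 (0.135 to 0.984), and the subunits 12 UMIs and a ratio of 0.589 (0.303 to 1.04). Of 1959 genes 35% were at least 1.5-fold lower there. Dlat had 5 UMIs and a ratio of 0.448 (0.144 to 1.06). Pdhb, also on 5 UMIs, stood higher in white-like nuclei, with a ratio of 1.60 (0.504 to 3.88). Both of these intervals include 1. In 1cyc the wider choice from 1 UMI gave 0.570 for Pdk4 and 0.608 for all kinases. Over the alternatives run Dlat went from 0.107, with a narrower choice from 4 UMIs, to 0.785.

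**Figure D2:**
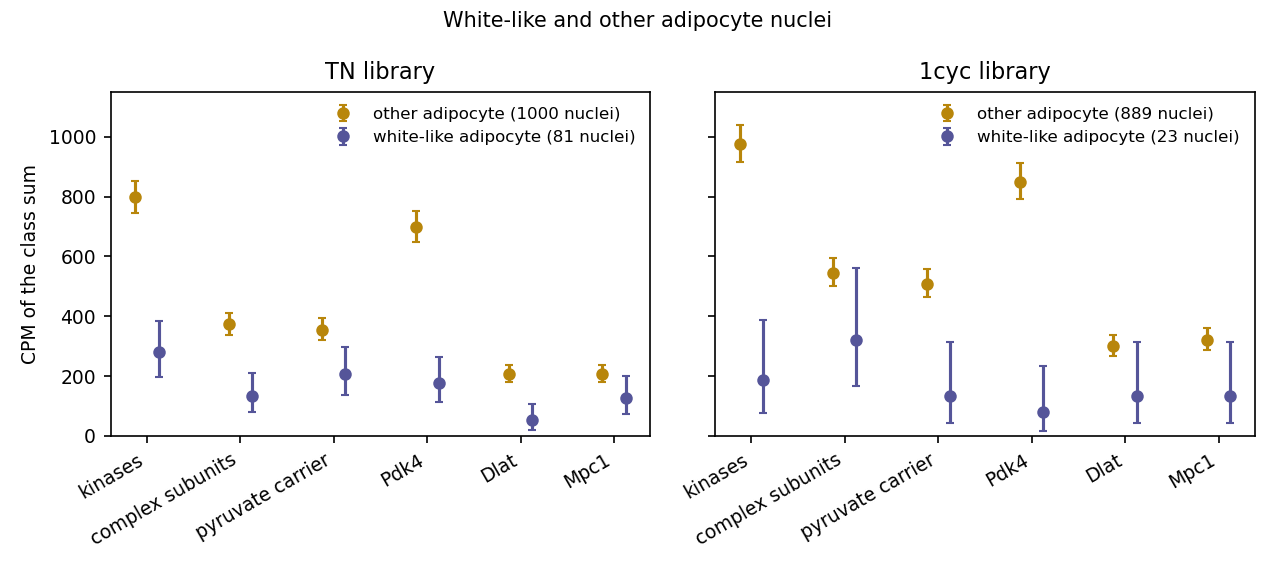
CPM of the summed kinases, subunits and carrier and of Pdk4, Dlat and Mpc1 in white-like (purple) and other (gold) adipocyte nuclei of the TN library (left) and the 1cyc library (right), with exact 95% Poisson intervals. Pdk4 stands at 176.7 against 699 CPM in TN and at 80.4 against 850.4 CPM in 1cyc, and the 1cyc white-like intervals are wide because they rest on 23 nuclei.

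The smaller share of white-like nuclei in 1cyc moves with the ratios between the libraries, so these were also taken without them. Among the 1000 TN and 889 1cyc nuclei that are not white-like, Pdk4 had a ratio of 1.22 (1.10 to 1.35), Pdha1 2.01 (1.47 to 2.77), Pdhb 1.53 (1.08 to 2.19), Dlat 1.44 (1.21 to 1.73), Mpc1 1.54 (1.29 to 1.84) and Mpc2 1.27 (1.02 to 1.59). Each was a little smaller than over all adipocyte nuclei and kept its interval above 1. At least 1.5-fold higher were then 3 of 7 members, against 8.23% of 3440 genes, since Dlat fell under the threshold. Within white-like nuclei alone no member reached 100 UMIs. Pdk4 had a ratio of 0.455 there (0.0877 to 1.499), on 24 TN and 3 1cyc UMIs, and the summed subunits 2.43 (1.07 to 5.33), on 18 and 12 UMIs.

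Across the classes of nuclei, Pdk4 was high in adipocyte, unassigned and skeletal muscle nuclei and low in fibroblast nuclei. In TN its level was 640 CPM (594.9 to 686.6) in adipocyte nuclei, 337.7 CPM (161.9 to 621) in the 43 unassigned nuclei and 238.4 CPM (103 to 469.6) in the 28 skeletal muscle nuclei. It was 25.1 CPM (5.17 to 73.2) in 92 fibroblast nuclei, on 3 UMIs, and 13.2 CPM (2.73 to 38.7) in 39 erythroid barcodes, also on 3. In 25 endothelial nuclei it was 0 of 34524 UMIs, which allows up to 86.9 CPM. The intervals of adipocyte and unassigned nuclei overlap, as do those of unassigned and muscle nuclei and those of fibroblast and erythroid nuclei. Adipocyte over fibroblast nuclei, the ratio was 25.5 (8.70 to 124) in TN and 16.5 (5.61 to 79.9) in 1cyc. Adipocyte nuclei had the higher level by 1.5-fold or more for 38.5% of the genes compared with fibroblasts in TN and for 48.4% in 1cyc. The minimum of UMIs over both sums is met mainly through adipocyte nuclei here. They held 1193078 UMIs against 119735 in fibroblast nuclei in TN, and 989852 against 60090 in 1cyc. The genes compared, members included, were thus picked largely by their adipocyte counts, and these shares are no even background for the member ratios. Unassigned nuclei, which met neither the adipocyte rule nor another class, held 666.4 CPM (401.2 to 1041) in 1cyc at a median of only 361 UMIs, and the interval of 1cyc adipocyte nuclei (765.8 to 879.8) lies inside theirs.

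The carrier had another order of classes than Pdk4. Mpc1 stood highest in TN skeletal muscle nuclei, at 357.5 CPM (184.7 to 624.5) on 12 UMIs, beside 198.6 CPM in adipocyte nuclei, and these intervals overlap. It was 91.9 CPM (45.9 to 164.4) in fibroblast nuclei, 86.9 CPM (17.9 to 253.9) in endothelial nuclei and 4.41 CPM (0.112 to 24.6) in erythroid barcodes. Dlat stood at 178.8 CPM (65.6 to 389.1) in muscle, next to 189.4 CPM in adipocyte nuclei, and at 66.8 CPM (28.9 to 131.7) in fibroblasts. Adipocyte over fibroblast nuclei in TN, Dlat had a ratio of 2.84 (1.41 to 6.65), Mpc1 of 2.16 (1.19 to 4.39) and Mpc2 of 4.19 (1.61 to 15.6). Pdhx, at 33.4 CPM in fibroblast nuclei on 4 UMIs, had 1.43 (0.529 to 5.43), and Pdk2, at 25.1 CPM on 3, had 1.27 (0.403 to 6.44). Both of these include 1. In 1cyc only fibroblast and unassigned nuclei besides adipocytes reached 20 nuclei, and the 54 fibroblast nuclei held 6 kinase, 5 subunit and 4 carrier UMIs.

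**Figure D3:**
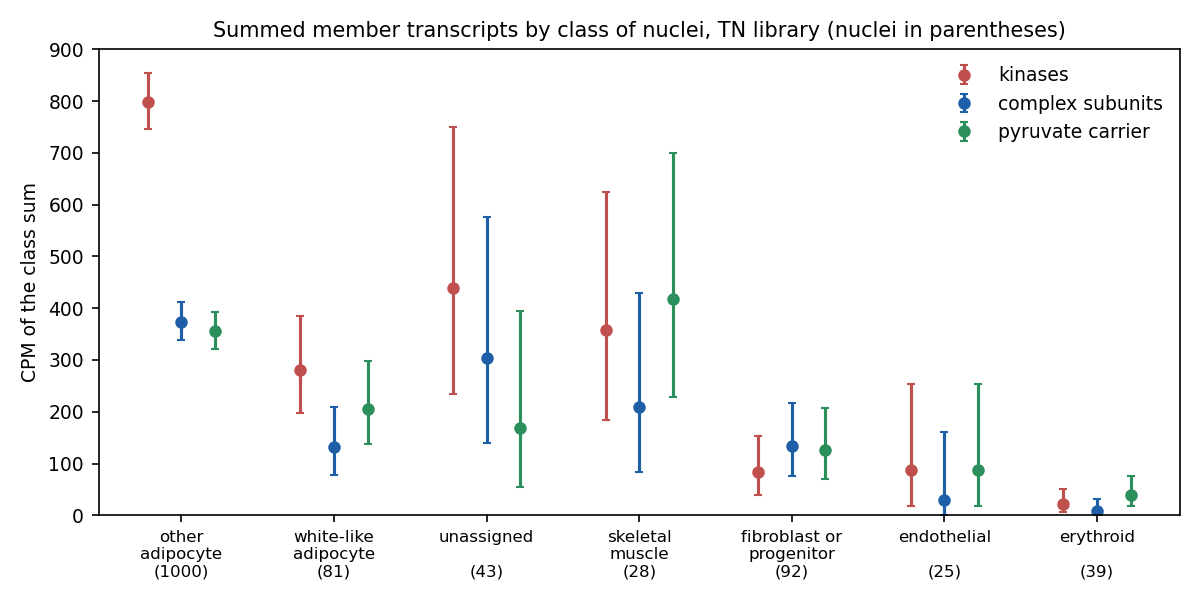
Summed CPM of kinases (red), complex subunits (blue) and pyruvate carrier (green) in each class of TN nuclei with at least 20 nuclei, with exact 95% Poisson intervals and the number of nuclei in parentheses. The kinase sum goes from 798.3 CPM in adipocyte nuclei that are not white-like to 279.8 CPM in white-like and 83.5 CPM in fibroblast nuclei. Each colour is compared across classes, not with the other colours.

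Nuclei with a Ucp1 UMI had more Pdk4 in both libraries, in a split that was added after values had been seen. White-like nuclei, which held less Pdk4, were not left out of this split. In 1cyc they held 0 Ucp1 UMIs and so all fell in the group without. Their part in the ratios was not tested. In TN, Pdk4 stood at 961.5 CPM in the 108 nuclei with a Ucp1 UMI and at 607.4 CPM in the 973 without, a ratio of 1.58 (1.28 to 1.95). In 1cyc it stood at 1138 CPM in 177 nuclei and at 729.7 CPM in 735, a ratio of 1.56 (1.34 to 1.81). The interval lay above 1 for 6.84% of 2177 genes in TN and 6.48% of 1959 in 1cyc. Median depth was alike in TN (870.5 and 873 UMIs) and higher with Ucp1 in 1cyc (1129 and 895). Summed subunits gave 1.20 (0.854 to 1.64) in TN and 0.973 (0.786 to 1.20) in 1cyc, both including 1. The summed carrier gave 1.45 (1.06 to 1.95) in TN and 1.17 (0.946 to 1.44) in 1cyc. Pdha1 in 1cyc was lower in nuclei with a Ucp1 UMI, at 72.0 against 132.9 CPM, with a ratio of 0.541 (0.298 to 0.922), while in TN it was 0.987 (0.349 to 2.27).

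A second split, also added after values had been seen, took nuclei with a UMI of the fatty acid synthesis genes Acly, Fasn or Scd1. In TN the Pdk4 ratio of the 203 nuclei with such a UMI over the 878 without was 1.03 (0.860 to 1.22), and in 1cyc, with 373 and 539 nuclei, it was 1.26 (1.10 to 1.45). The interval lay above 1 for 5.51% of TN genes and 5.97% of 1cyc genes. Mpc1 had 0.979 (0.700 to 1.35) in TN and 1.35 (1.07 to 1.70) in 1cyc. The summed carrier had 0.913 (0.705 to 1.17) and 1.295 (1.08 to 1.55). The subunits had 1.26 (1.00 to 1.58) in TN and 1.14 (0.957 to 1.35) in 1cyc. Nuclei with such a UMI were deeper, 940 against 857 UMIs at the median in TN and 1117 against 856 in 1cyc. White-like nuclei were not left out here either. The part of depth and of white-like nuclei in these ratios was not tested.

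Around the 10 members, 4 other genes belong to the complex or its phosphatases, and of the 2 tested 1 was at least 1.5-fold higher and 0 lower. As for the members, 8.56% of all genes were higher and 5% lower by that measure, and these shares are the background of each list that follows. Dld, which encodes the shared dehydrogenase that PDHX anchors, had 44 UMIs in TN (36.9 CPM) and 71 in 1cyc (71.7 CPM), a ratio of 1.95 (1.32 to 2.90). Pdpr, the regulatory subunit of the phosphatase, had 113 and 137 UMIs and a ratio of 1.46 (1.13 to 1.89). The catalytic phosphatase genes were sparse, Pdp1 with 4 and 7 UMIs and Pdp2 with 12 and 24, and Pdp2 had a ratio of 2.41 (1.16 to 5.29). None of the 7 genes listed around lipoic acid, the cofactor of DLAT, reached 100 UMIs. In the sister complexes that oxidise 2-oxoglutarate and branched-chain keto acids, 6 of 7 genes were tested and 0 were at least 1.5-fold apart, with ratios from 1.11 to 1.35 and a median of 1.30.

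Genes that supply pyruvate or draw on it were at least 1.5-fold higher for 3 of 8 tested (8.56% of all genes) and lower for 0 (5% of all genes), with a median ratio of 1.40. Ldha, a lactate dehydrogenase subunit, had 55 and 134 UMIs and a ratio of 2.94 (2.13 to 4.10). Pkm, pyruvate kinase, had 114 and 212 UMIs and 2.24 (1.78 to 2.84). Slc16a1, a monocarboxylate transporter that carries lactate and pyruvate, had 1.501 (1.22 to 1.85), right at the threshold, and 1.43 (1.16 to 1.76) in nuclei that are not white-like. Pcx, pyruvate carboxylase, went the other way, from 1.47 (1.26 to 1.72) to 1.65 (1.40 to 1.96). On the side of acetyl-CoA and citrate 3 of 7 were at least 1.5-fold higher and 0 lower, against 8.56% and 5% of all genes, with a median of 1.48. These were Acly, ATP citrate lyase, at 2.73 (2.23 to 3.35), Crat, carnitine acetyltransferase, at 2.01 (1.54 to 2.63), and Acss2, which makes acetyl-CoA from acetate, at 1.89 (1.60 to 2.23).

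Of 12 tested genes known to regulate Pdk4 transcription, 1 was at least 1.5-fold higher, or about the share of all genes (8.56%), and 0 were lower, with a median of 1.18. That gene was Esrra, the estrogen-related receptor alpha, with 160 and 221 UMIs and a ratio of 1.67 (1.35 to 2.05). Ppara and Pparg are on this list but also chose the nuclei, so their ratios of 1.40 and 1.14 are no independent measure. Among other PPAR target genes of fat burning 2 of 8 were at least 1.5-fold higher (8.56% of all genes) and 0 lower, with a median of 1.37. They were Ucp3, an uncoupling protein homologue, at 2.47 (1.69 to 3.66), and Slc25a20, the mitochondrial carnitine carrier, at 1.85 (1.502 to 2.29). The Pdk4 ratio of 1.28 lay under that list's median.

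**Figure D4:**
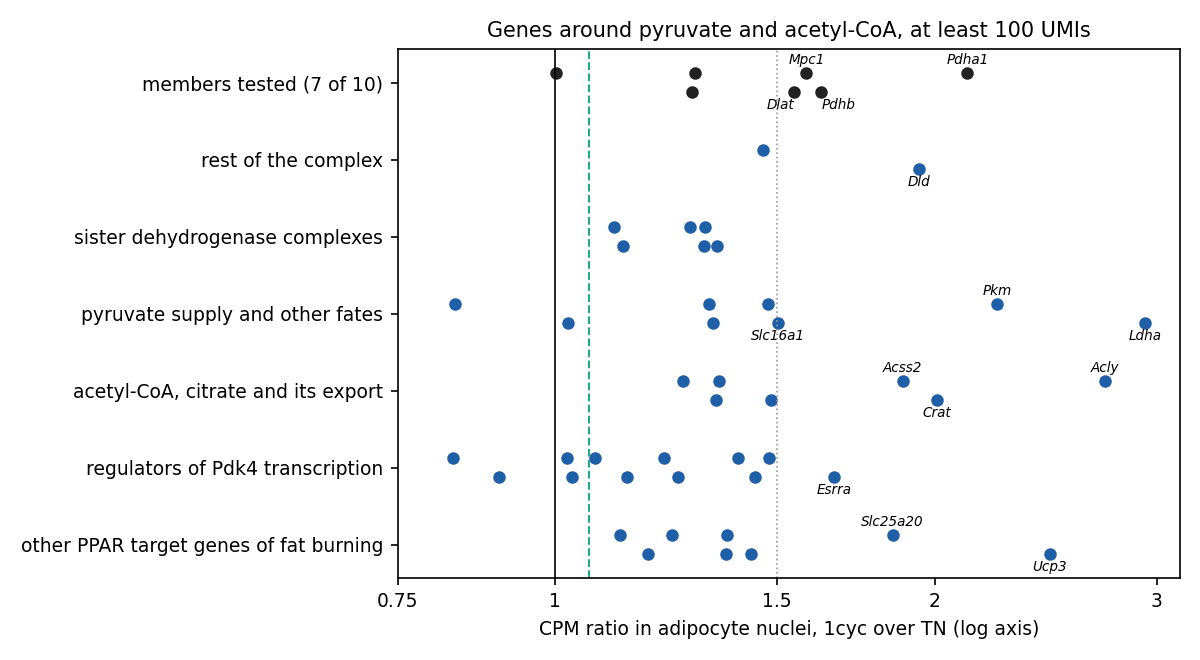
CPM ratio of 1cyc over TN in adipocyte nuclei (log axis) for each tested member (black) and each tested gene of 6 lists around pyruvate and acetyl-CoA (blue), 1 point per gene, with genes at 1.5-fold or more named. The solid line is 1, the dashed line the median of all genes (1.06) and the dotted line 1.5-fold. No gene of the lists lies at 1.5-fold or more below 1, and Ldha (2.94) and Acly (2.73) lie farthest to the right.

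In mm10 coordinates of the GENCODE M21 annotation, Pdk4 (ENSMUSG00000019577) lies on chromosome 6 from 5483351 to 5496309, minus strand, and Dlat (ENSMUSG00000000168) on chromosome 9 from 50634633 to 50659780, minus strand. Pdha1 (ENSMUSG00000031299) lies on chromosome X from 160122209 to 160138413, minus strand, Mpc1 (ENSMUSG00000023861) on chromosome 17 from 8282904 to 8297661, plus strand, and Pdhx (ENSMUSG00000010914) on chromosome 2 from 103021075 to 103073513, minus strand. Pdha1 overlaps Map3k15, Pdk2 overlaps Gm11513 and Mpc1 overlaps 4930506C21Rik on the opposite strand, and Mpc2 overlaps Gm37860 on its own strand. Whether counting used the strand is not given in the sources used here, so UMIs of these 4 members could include some of their neighbours.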

How the data were processed

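The matrices the authors deposited hold unnormalized UMI counts for each gene in each barcode. Per the submitters' processing notes they came from Cell Ranger 3 on mm10, and per the file headers the matrices were written by version 3.1.0. For intron counting, strand use and annotation version, a statement is not given in the sources used here. Doublets were not removed in the reported values. UMIs were summed per class and library and scaled to CPM, with exact Poisson, conditional binomial and Clopper-Pearson 95% intervals. Only the conditional binomial intervals of ratios were tested on simulated data. Those data were Poisson counts, so the test does not cover spread between nuclei or mice. Genes needed 100 UMIs over both sums, and 1.5-fold counted as apart. A count of 0 was given a limit of 3 counts. Named genes were all 10 members, Dld, Pdp1, Pdp2 and Pdpr, and every listed pathway gene that passed both limits. Genes of like pattern were not computed, since only 2 classes had 20 nuclei in both libraries. Nuclei outside the adipocyte rule were erythroid at 10% haemoglobin UMIs, and otherwise took the marker list with the most UMIs, at 3 or more. Thinned shares are medians of 20 draws, a choice made after 1 draw was seen to be off. The summed Schwann cell list is not reported here. The members and lists were chosen with earlier results of these data known. Alternatives changed the rule, the mitochondrial limit, the scaling (edgeR 4.0.16 for TMM), the weights, the depth and the doublets (Scrublet in scanpy 1.11.5). Python 3.11.15, numpy 2.4.6 and scipy 1.17.1 were used.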

Additional observations from a re-analysis of the deposited data

Results flagged for a closer look

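Pdk4 moved in opposite directions in the 2 groups of adipocyte nuclei. In white-like nuclei its 1cyc over TN ratio was 0.455 (0.0877 to 1.499), on 24 TN and 3 1cyc UMIs, and in the other adipocyte nuclei it was 1.22 (1.10 to 1.35). The difference was not tested, and the first interval includes 1.

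Member UMIs also appeared in barcodes at or above the 5% mitochondrial limit, which enter the comparisons only where stated. The 10 members had 955 UMIs in the 1211 such TN barcodes and 1754 UMIs in the 3237 such 1cyc barcodes. Per 1000000 UMIs that are not mitochondrially encoded this was 1019 (955.4 to 1086) in TN and 1818 (1734 to 1905) in 1cyc, against 1461 and 2018 in the adipocyte nuclei under the limit. Of these barcodes 816 TN and 1637 1cyc met the adipocyte rule, and in them Pdk4 stood at 530.8 and 834.3 on that scale, Pdha1 at 57.7 and 97.5, and Pdhx at 37.9 and 48.8.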

How the results depend on the processing

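No paired analysis was possible because each condition is 1 pooled library. No member or group ratio whose interval excludes 1 changed direction under the alternatives run, while Pdk1 ran from 0.790 to 1.13 and Pdhx from 0.695 to 1.29, on both sides of 1. Barcodes at or above the mitochondrial limit that met the adipocyte rule, an alternative chosen after seeing the data, turned the kinase to subunit balance to 1.16, and gave 1.51 for kinases, 1.30 for subunits and 1 member at least 1.5-fold higher of 4 that reached the minimum; the cause was not tested. The summed subunits ran from 1.30 to 1.67 and the carrier from 1.33 to 1.54 over 18 alternatives for nuclei and scaling. The kinase ratio of 1.28 moved to 1.58 with a mitochondrial limit of 2%, 1.08 with every nucleus given the same weight and 1.11 when thinned to 500 UMIs. The count of 4 members at least 1.5-fold higher became 2 with TMM scaling, 2 with median ratio scaling, 2 when scaled without the rule genes and the 50 genes with the most UMIs (added after seeing the data), 2 with a minimum of 200 UMIs and 0 when thinned, where 4 members reached the minimum. The count of 0 lower became 1 (Pdk3) with no filter on low counts. The 1cyc white-like kinase ratio of 0.192 became 0.608 with white-like nuclei taken from 1 UMI. Thinned, Pdk3 gave no ratio. The intervals of Pdk1, Pdk3 and Pdhx include 1, so a difference within them was not detectable at this depth.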
